A study of Homo sapiens with 14 samples.

Results

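The genes described here are 52 DNA repair genes, taken from a list of names and measured on 2-colour microarrays of LNCaP cells, an established androgen-responsive line from a human prostate cancer metastasis. All 52 listed genes had at least 1 probe, out of 14547 genes with a named probe. They comprise 13 genes of homologous recombination, 17 of excision repair (7 of base excision and 10 of nucleotide excision), 5 of mismatch repair, 7 of the Fanconi anaemia pathway, 5 of end joining, 4 of damage signalling and 1 of translesion synthesis.

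Homologous recombination repairs breaks of both DNA strands by copying the sister chromatid, so it works mainly in dividing cells, and the Fanconi anaemia proteins prepare strand crosslinks for it. End joining ligates broken ends directly in any phase of the cell cycle. Base excision repair removes single damaged bases, nucleotide excision repair cuts out bulky lesions such as those made by ultraviolet light, and mismatch repair corrects errors of replication. Damage signalling kinases halt the cell cycle while repair goes on, and in prostate cancer inherited or acquired loss of some recombination genes is known to make tumours sensitive to inhibitors of PARP enzymes.

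Every array set RNA of treated cells against RNA of other LNCaP cells, with one labelled in the dye Cy3 and the other in Cy5. All cultures, controls included, were plated for 36 h and then kept for 48 h in medium with charcoal-stripped serum, which lacks steroids. Treated cells received 1 nM of the synthetic androgen R1881, 25 µg/ml of cycloheximide (CHX), which blocks protein synthesis, or both added together, for 24 h, and controls were not stimulated. Each of the 3 treatments was compared with control in 2 culture experiments, each hybridised in both dye orientations (4 arrays a treatment). A further pair of arrays compared CHX plus R1881 with CHX directly in 1 experiment, for which the labels give no replicate number. The labels describe 1 cell line and no other model, so no value here speaks for other prostate cells.

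The values are log ratios, taken as log2, with array medians near 0 and no intensities. Neither levels nor signal over background could therefore be given, and the identity of the cells could not be checked by the level of LNCaP markers. The sign of the ratios is not stated in the labels and was set so that treated over untreated is positive. TMPRSS2, KLK3 and FKBP5, which androgens are known to induce in this line, were then above 0 with R1881 on 4 of 4 arrays each, so the direction of every signed value is likely and not certain. Over all probes, the SD of the log ratios was 0.18 to 0.25 with R1881 and 0.57 to 0.62 with CHX or CHX plus R1881. Ratios of the same RNA pair in the 2 dye orientations correlated across probes at 0.13 and 0.22 with R1881, at 0.88 and 0.79 with CHX, at 0.89 and 0.83 with CHX plus R1881, and at −0.04 on the direct arrays. The arrays of a dye swap were averaged, so n = 2 experiments for each treatment, and ± gives the SD between them. A gene was called, and is said to have risen or fallen, at a limma adjusted p under 0.05 over all 14547 genes.

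**Figure D1:**
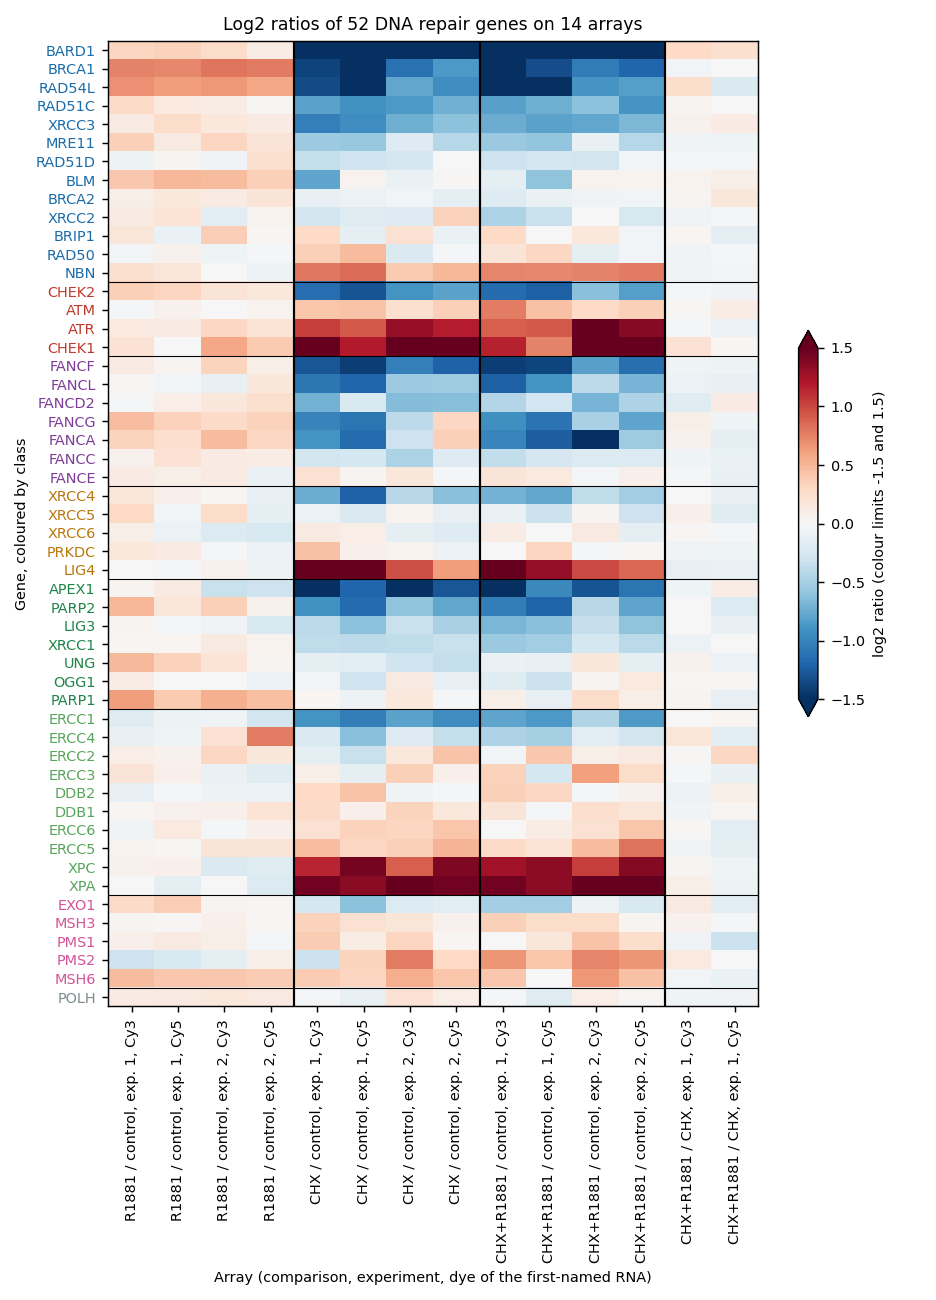
Log2 ratio of each of the 52 DNA repair genes (vertical axis, coloured by class and ordered within a class by the CHX mean) on each of the 14 arrays (horizontal axis: comparison, experiment and dye of the first-named RNA), as a colour from −1.5 (blue) to 1.5 (red). The direct arrays are drawn as experiment 1, a number that the labels do not give. BRCA1, RAD54L, PARP1, BLM and MSH6 are red on all 4 R1881 arrays, while BARD1, BRCA1, APEX1 and FANCF are blue and XPA, XPC, CHEK1 and ATR red on all 8 arrays with CHX against control.

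The comparison of R1881 with control addressed which repair transcripts differ after 24 h of androgen. Most lay above 0, and the highest were recombination genes: BRCA1, RAD54L and BLM, together with PARP1. The changes were small, and 0 of 52 repair genes were called, where limma called 0.00687% of all genes. Of the known androgen-induced genes, limma called TMPRSS2 (1.65, adjusted p = 0.0202) but neither KLK3 (0.98, adjusted p = 0.126) nor FKBP5 (0.69, adjusted p = 0.261). The lack of a call in this fit therefore does not show that a gene did not respond. At an unadjusted p under 0.05 there were 7 repair genes, all above 0, namely BRCA1, RAD54L, BLM, PARP1, MSH6, UNG and MRE11, beside 6.33% of all genes. The median of the 52 was 0.11 with 41 above 0, against a median of −9.7e-05 over all genes. On 4 of 4 arrays 25 repair genes were above 0 (11.7% of all genes were) and 2, ERCC1 and DDB2, were below 0 (13.0% of all genes). RNA came from whole cultures, so fewer cells with a transcript and less of it per cell cannot be told apart.

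BRCA1, a ubiquitin ligase that directs broken ends into recombination, had log2 ratios of 0.75 and 0.72 in experiment 1 (treated RNA in Cy3, then in Cy5, as for all pairs below) and of 0.80 and 0.78 in experiment 2. The 4 values lay close together, slightly higher in experiment 2, and the mean was 0.76 ± 0.04 (1.70-fold, 95% interval 0.44 to 1.08, limma adjusted p = 0.293). RAD54L, a motor protein that drives strand exchange, had 0.68 and 0.63 in experiment 1 and 0.65 and 0.58 in experiment 2, with a mean of 0.63 ± 0.03 (adjusted p = 0.729). BLM, the helicase that is lost in Bloom syndrome, had 0.40 and 0.50, then 0.48 and 0.36, with a mean of 0.43 ± 0.02 (adjusted p = 0.615). PARP1, the enzyme that marks strand breaks with chains of ADP-ribose, had 0.62 and 0.39, then 0.54 and 0.45, with a mean of 0.50 ± 0.01 (adjusted p = 0.237). In each of these 4 genes every array was above 0, and the experiments differed by less than the dye orientations did in BLM and PARP1.

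The promoters of these 4 genes are shown because their transcripts had the highest ratios with R1881. They run from 250 bases before the RefSeq gene start to 20 bases from it (270 bases, GRCh38.p14, 5′ to 3′ in the direction of the gene), in lower case with matches to searched motifs in capitals. The motifs were the CCAAT box (CCAAT), the cell cycle element TTTGAA, 4 E2F motifs (TTTCCCGC, TTTGGCGC, TTTCGCGC and TTTGCCGC) and AGAACA, one of the repeats of the androgen receptor element, each on both strands, where no motif contains another. The windows are chr17:43125345-43125614 (minus strand, the nearer to the gene body of 2 listed BRCA1 starts), chr1:46247438-46247707 (plus strand, the first of 2 RAD54L starts), chr15:90717096-90717365 (plus strand, BLM) and chr1:226408074-226408343 (minus strand, PARP1).
BRCA1: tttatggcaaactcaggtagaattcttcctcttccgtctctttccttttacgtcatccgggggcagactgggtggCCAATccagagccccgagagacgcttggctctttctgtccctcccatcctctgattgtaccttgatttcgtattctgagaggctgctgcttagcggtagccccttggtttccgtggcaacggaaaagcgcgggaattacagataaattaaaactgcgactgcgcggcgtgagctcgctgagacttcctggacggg
RAD54L: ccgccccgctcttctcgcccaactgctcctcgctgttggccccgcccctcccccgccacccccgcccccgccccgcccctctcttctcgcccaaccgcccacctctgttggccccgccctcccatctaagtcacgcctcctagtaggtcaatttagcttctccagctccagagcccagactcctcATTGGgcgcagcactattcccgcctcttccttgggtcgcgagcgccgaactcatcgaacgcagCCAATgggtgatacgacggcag
BLM: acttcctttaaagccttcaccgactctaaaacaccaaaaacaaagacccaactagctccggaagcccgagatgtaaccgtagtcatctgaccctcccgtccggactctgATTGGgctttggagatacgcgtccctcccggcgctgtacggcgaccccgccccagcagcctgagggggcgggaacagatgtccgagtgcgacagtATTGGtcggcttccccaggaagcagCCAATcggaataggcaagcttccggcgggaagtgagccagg
PARP1: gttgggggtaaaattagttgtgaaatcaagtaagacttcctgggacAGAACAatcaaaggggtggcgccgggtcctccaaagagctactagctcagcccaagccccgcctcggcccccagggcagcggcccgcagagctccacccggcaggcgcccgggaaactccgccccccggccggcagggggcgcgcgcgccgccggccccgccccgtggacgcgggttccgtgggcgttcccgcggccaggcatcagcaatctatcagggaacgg
The capitals mark CCAAT boxes, read as ATTGG on the opposite strand, in the first 3 windows and AGAACA in that of PARP1. Positions count from 0 at the first base of the gene. The box lies at −175 to −171 in BRCA1, at −65 to −61 and −2 to 2 in RAD54L, and at −141 to −137, −46 to −42 and −21 to −17 in BLM. The letters AGAACA lie at −204 to −199 in PARP1. Such matches are frequent: over all windows of 300 bases in the table, a CCAAT box stood in 34.6% and AGAACA in 14.8%.

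The lowest values with R1881 were those of PMS2, ERCC1, APEX1 and XRCC6, and none of them was called. PMS2, the mismatch repair endonuclease subunit, had −0.31 and −0.23 in experiment 1 and −0.15 and 0.09 in experiment 2 (mean −0.15 ± 0.17, adjusted p = 0.998). ERCC1, which with ERCC4 forms the nuclease that cuts 5′ of a bulky lesion, was below 0 on every array, with −0.18 and −0.08, then −0.06 and −0.27 (mean −0.15 ± 0.03, adjusted p = 0.823). The endonuclease gene APEX1, whose product cuts at sites without a base, differed between experiments, with 0.04 and 0.12 in experiment 1 and −0.33 and −0.31 in experiment 2. XRCC6, which encodes the Ku70 subunit that binds DNA ends, had 0.09 and −0.08, then −0.20 and −0.23, and the experiments did not overlap either.

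By class, homologous recombination had a median of 0.14 with R1881, with 12 of 13 genes above 0 and 8 of 13 above 0 on 4 of 4 arrays. Excision repair had a median of 0.04, with 10 of 17 above 0 and 7 of 17 above 0 on 4 of 4 arrays. Its base excision genes had a median of 0.06 and its nucleotide excision genes 0.02, the latter with 5 of 10 above 0. On 4 of 4 arrays, 4 of 7 base excision, 3 of 10 nucleotide excision and 3 of 5 mismatch repair genes were above 0. Mismatch repair had a median of 0.07, with 4 of 5 above 0, and its highest gene, MSH6, the subunit that recognises single mismatches, had 0.48 and 0.40, then 0.41 and 0.38 (mean 0.42 ± 0.03, adjusted p = 0.475). All 7 Fanconi anaemia genes were above 0 in the mean (median 0.13), led by FANCG at 0.36 ± 0.06 and FANCA at 0.34 ± 0.07, both of the core complex. All 4 damage signalling genes were above 0 in the mean as well (median 0.23), 2 of them on 4 of 4 arrays. In end joining 3 of 5 genes were above 0 in the mean (median 0.04), 0 of them on 4 of 4 arrays. The order of homologous recombination above excision repair held in each experiment, with medians of 0.21 and 0.04 in experiment 1 and of 0.16 and 0.03 in experiment 2. No test was made of the difference between classes, since the genes of a class are not replicates.

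**Figure D2:**
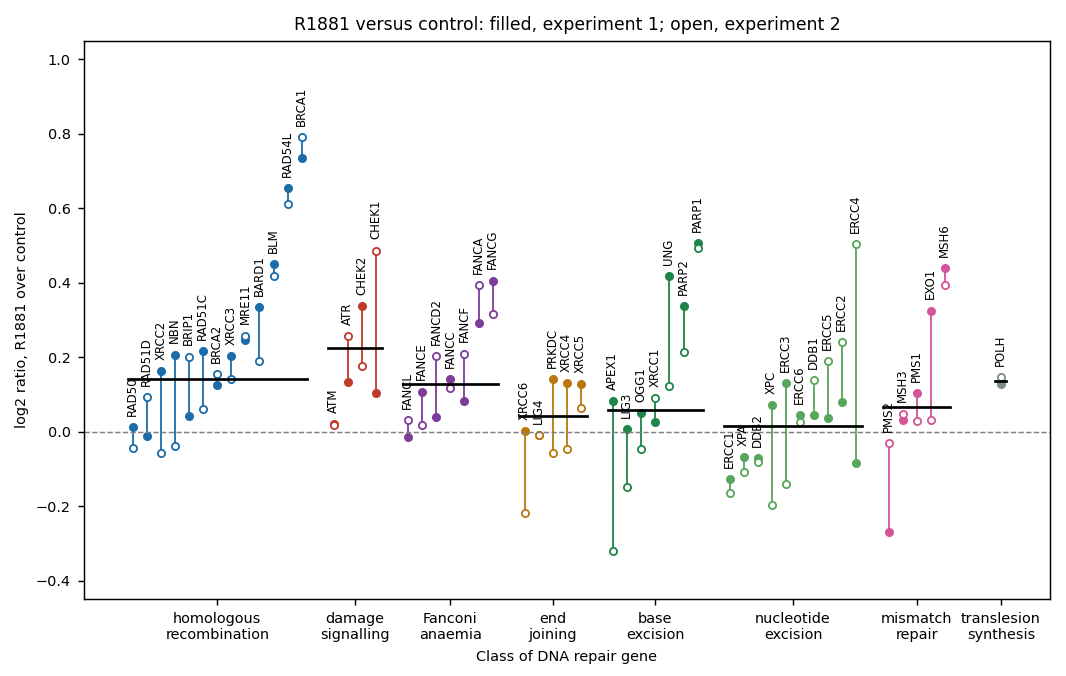
Log2 ratio of R1881 over control (vertical axis) for each repair gene by class (horizontal axis), with experiment 1 as filled and experiment 2 as open points, each the mean of 2 arrays, and the class median of the gene means as a black line; the dashed line is the median of all genes. BRCA1, RAD54L, BLM, PARP1 and MSH6 stand high in both experiments, whereas others, such as ERCC4 and APEX1, change sign between them.

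A few members had R1881 values that 1 experiment carried. ERCC4, the nuclease partner of ERCC1, had −0.11 and −0.06 in experiment 1 but 0.23 and 0.77 in experiment 2. UNG, which removes uracil from DNA, had 0.48 and 0.35 in experiment 1 and 0.20 and 0.05 in experiment 2. EXO1, the exonuclease of mismatch repair, had 0.28 and 0.37, then 0.04 and 0.02. The arrays of experiment 1 were thus the higher ones for UNG and EXO1 and the lower ones for ERCC4.

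Of 106 other repair genes listed by pathway, 87 were measured, and 0 of them were called with R1881. Their median was 0.06 with 58 of 87 above 0. All 7 further genes of the mismatch repair list, mostly subunits of the clamp loader and the clamp, which replication uses too, were above 0 with a median of 0.34. The 13 further nucleotide excision genes had a median of −0.02 with 4 above 0, and the 15 of base excision 0.02 with 8 above 0. Further recombination genes had 0.09 with 17 of 20 above 0, and further Fanconi anaemia genes 0.25 with 6 of 6. Further damage signalling genes had 0.10 with 9 of 11, end joining −0.11 with 2 of 5 and translesion synthesis 0.004 with 5 of 10. Beside these values, 29 of 29 measured proliferation markers, such as genes of DNA replication and mitosis, were above 0 with R1881, with a median of 0.35 and a range of 0.03 to 0.73. The part of a change in the share of dividing cells in the repair values was not tested.

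The spread of the R1881 arrays was smaller than that of the CHX arrays with which it was pooled. Fitted alone, the R1881 log ratios called 1 gene and 0 repair genes, and 16 of 52 repair genes had an unadjusted p under 0.05, beside 10.4% of all genes, with BRCA1 lowest (adjusted p = 0.167). Another fit pooled all 12 arrays against control again, without averaging dye swaps and with the experiment as a random block. In it limma called BRCA1 (adjusted p = 0.00349) and PARP1 (0.00751), beside 1.18% of all genes. With arrays scaled to one spread 5 repair genes rose, where 2.78% of all genes were called. With quantile normalization 10 rose and 1 fell, where 6.16% of all genes were called.

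CHX versus control shows the same genes after 24 h of the inhibitor alone, the background for R1881 given with CHX. Of the 52 repair genes, 11 rose and 17 fell, where limma called 38.0% of all genes, 20.5% as risen and 17.4% as fallen. Recombination, Fanconi anaemia and base excision genes fell more often than they rose, at 6 against 1, 4 against 0 and 4 against 0. Nucleotide excision genes rose more often, 5 against 1, and in mismatch repair 1 gene rose and 0 fell. The largest changes were falls of BARD1, APEX1, FANCF and BRCA1 and rises of CHEK1, XPA, XPC and LIG4. The median of the 52 was −0.09, against 0.002 over all genes.

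Among the 13 recombination genes, BARD1, the partner that BRCA1 needs as a ubiquitin ligase, had the lowest ratios of all repair genes, with −1.89 and −2.14 in experiment 1 and −2.59 and −2.66 in experiment 2. It fell by 2.32 ± 0.43 on the log2 scale (4.99-fold lower, adjusted p = 0.000416). BRCA1 itself had −1.39 and −1.49, then −1.12 and −0.86, and fell by 1.21 ± 0.32 (2.32-fold lower, adjusted p = 0.00124). In both genes the experiments did not overlap, BARD1 being lower in experiment 2 and BRCA1 in experiment 1. RAD54L (−1.21), RAD51C (−0.83) and XRCC3 (−0.82), the last 2 of which encode paralogs of the recombinase that load it on DNA, and the nuclease MRE11 (−0.43) also fell. NBN, the partner of MRE11 and RAD50 in the complex that senses broken ends, rose by 0.63 ± 0.26, so members of that complex changed in opposite directions. The other 6, BRCA2, BLM, BRIP1, RAD50, RAD51D and XRCC2, lay between −0.23 and 0.15 and were not called. The class median was −0.23.

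The Fanconi anaemia genes FANCF, FANCL, FANCD2 and FANCC fell, and 0 of 7 rose. FANCF, an adaptor of the core complex, had −1.28 and −1.42 in experiment 1 and −1.03 and −1.22 in experiment 2, and fell by 1.24 ± 0.16 (2.35-fold lower, adjusted p = 0.000839). FANCL, the ubiquitin ligase of that complex, fell by 0.84 ± 0.42, and its target FANCD2 fell by 0.56 ± 0.12. Every array was below 0 for these 3 genes. FANCA had −0.89 and −1.16 in experiment 1 but −0.31 and 0.36 in experiment 2, and FANCG had −1.0 and −1.10, then −0.40 and 0.31. Neither was called (adjusted p = 0.150 and 0.127), and in both genes the experiments lay apart, with opposite signs between dyes in experiment 2.

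Damage signalling genes split. CHEK1, the checkpoint kinase that ATR activates at stalled forks, had 1.79 and 1.19, then 1.79 and 1.65, and rose by 1.61 ± 0.16 (3.04-fold, adjusted p = 0.00268), the largest rise of the 52. ATR rose by 1.11 ± 0.19 (2.16-fold) and ATM, the kinase that answers broken ends, by 0.36 ± 0.08. CHEK2, the checkpoint kinase downstream of ATM, fell by 1.03 ± 0.26 (2.05-fold lower, adjusted p = 0.00292). Every array was above 0 for CHEK1, ATR and ATM and below 0 for CHEK2.

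In end joining, LIG4, the ligase of that pathway, rose and XRCC4, the scaffold that binds it, fell. LIG4 had 1.59 and 1.61 in experiment 1 and 0.97 and 0.62 in experiment 2, and rose by 1.2 ± 0.57 (2.29-fold, adjusted p = 0.00703). The experiments did not overlap, with the higher ratios in experiment 1. XRCC4 fell by 0.75 ± 0.32 (adjusted p = 0.00751). XRCC5, XRCC6 and PRKDC, which together encode the kinase bound to DNA ends, lay between −0.10 and 0.12 and were not called.

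Excision repair as a whole had 5 rises and 5 falls of 17 genes and a median of 0.02, but its branches differed in their counts. In base excision, APEX1 fell by 1.41 ± 0.06 (2.67-fold lower, adjusted p = 0.000381), with −1.55 and −1.19, then −1.63 and −1.28. PARP2 fell by 0.86 ± 0.24, and LIG3 and its scaffold partner XRCC1, which seal the nick, fell by 0.46 ± 0.07 and 0.37 ± 0.02. PARP1, UNG and OGG1, a glycosylase for oxidised guanine, lay between −0.24 and 0.02 and were not called. APEX1 was below 0 on every array, lower with the treated RNA in Cy3 in both experiments.

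In nucleotide excision, XPA, which verifies the lesion, had 1.44 and 1.35, then 1.53 and 1.45, and rose by 1.44 ± 0.07 (2.72-fold, adjusted p = 0.000192), the smallest adjusted p of the 52. XPC, which finds helix distortions, had 1.14 and 1.43, then 0.89 and 1.40, and rose by 1.22 ± 0.10 (2.32-fold, adjusted p = 0.000351). The nuclease gene ERCC5 rose by 0.41 ± 0.04, ERCC6, needed for repair in transcribed genes, by 0.33 ± 0.06, and DDB1, a subunit of the ultraviolet damage sensor, by 0.21 ± 0.05 (adjusted p = 0.0468). Both XPA and XPC were above 0 on every array; the experiments overlapped for XPC, and for XPA experiment 2 was slightly the higher. ERCC1 fell by 0.92 ± 0.07 (1.89-fold lower, adjusted p = 0.000399). ERCC2, ERCC3, ERCC4 and DDB2 were not called, at −0.35 to 0.17.

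The promoters of XPC and CHEK1 are shown as those of 2 of the largest rises. The windows, of the same extent and marking as above, are chr3:14178582-14178851 (minus strand, XPC) and chr11:125625979-125626248 (plus strand, the first of 3 CHEK1 starts in the table).
XPC: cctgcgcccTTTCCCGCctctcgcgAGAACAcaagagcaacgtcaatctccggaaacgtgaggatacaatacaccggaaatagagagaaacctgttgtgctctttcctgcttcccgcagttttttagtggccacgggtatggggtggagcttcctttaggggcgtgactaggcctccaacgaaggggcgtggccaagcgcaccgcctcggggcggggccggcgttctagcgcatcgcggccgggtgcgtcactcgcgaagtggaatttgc
CHEK1: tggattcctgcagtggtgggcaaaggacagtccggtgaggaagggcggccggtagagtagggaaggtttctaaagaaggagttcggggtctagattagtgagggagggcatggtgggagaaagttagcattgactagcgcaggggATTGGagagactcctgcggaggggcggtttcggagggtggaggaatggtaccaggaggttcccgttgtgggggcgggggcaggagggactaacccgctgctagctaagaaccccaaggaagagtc
In XPC the capitals mark the E2F motif TTTCCCGC at −241 to −234 and AGAACA at −225 to −220, and in CHEK1 they mark a CCAAT box at −105 to −101 on the opposite strand. XPA, with 1 listed start, and BARD1, with 1, had no match to any of the motifs in their windows. Of the 52 members, 49, all but NBN, PRKDC and XRCC5, matched the RefSeq promoter table by symbol, with 71 windows. E2F letters stood in 11 of 49 members (22.4%), against 3.99% of the 27305 genes in the table. The 11 were EXO1, MSH3, MSH6 and PMS2 of mismatch repair (4 of 5), FANCA, FANCC and FANCD2 (3 of 7), XRCC2 (1 of 12 recombination genes with a window), XPC, UNG and XRCC6. CCAAT boxes stood in 49.0% of the members and in 39.7% of the genes in the table, TTTGAA in 16.3% and 18.2%, and AGAACA in 20.4% and 17.5%.

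Of the 5 mismatch repair genes 4 were above 0 with CHX, at a median of 0.21, whereas 7 further genes of that pathway, mostly of the clamp loader and clamp, had a median of −0.43 with 1 rise and 4 falls. MSH6 had 0.38 and 0.32, then 0.55 and 0.42, above 0 on every array, and rose by 0.42 ± 0.09 (1.34-fold, adjusted p = 0.0178). PMS2 lay at 0.27 ± 0.37, with arrays from −0.33 to 0.77, while MSH3 had 0.21 ± 0.12, PMS1 0.21 ± 0.05 and EXO1 −0.31 ± 0.18, none of them called. POLH, the polymerase that copies past ultraviolet lesions, had 0.04 ± 0.16.

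**Figure D3:**
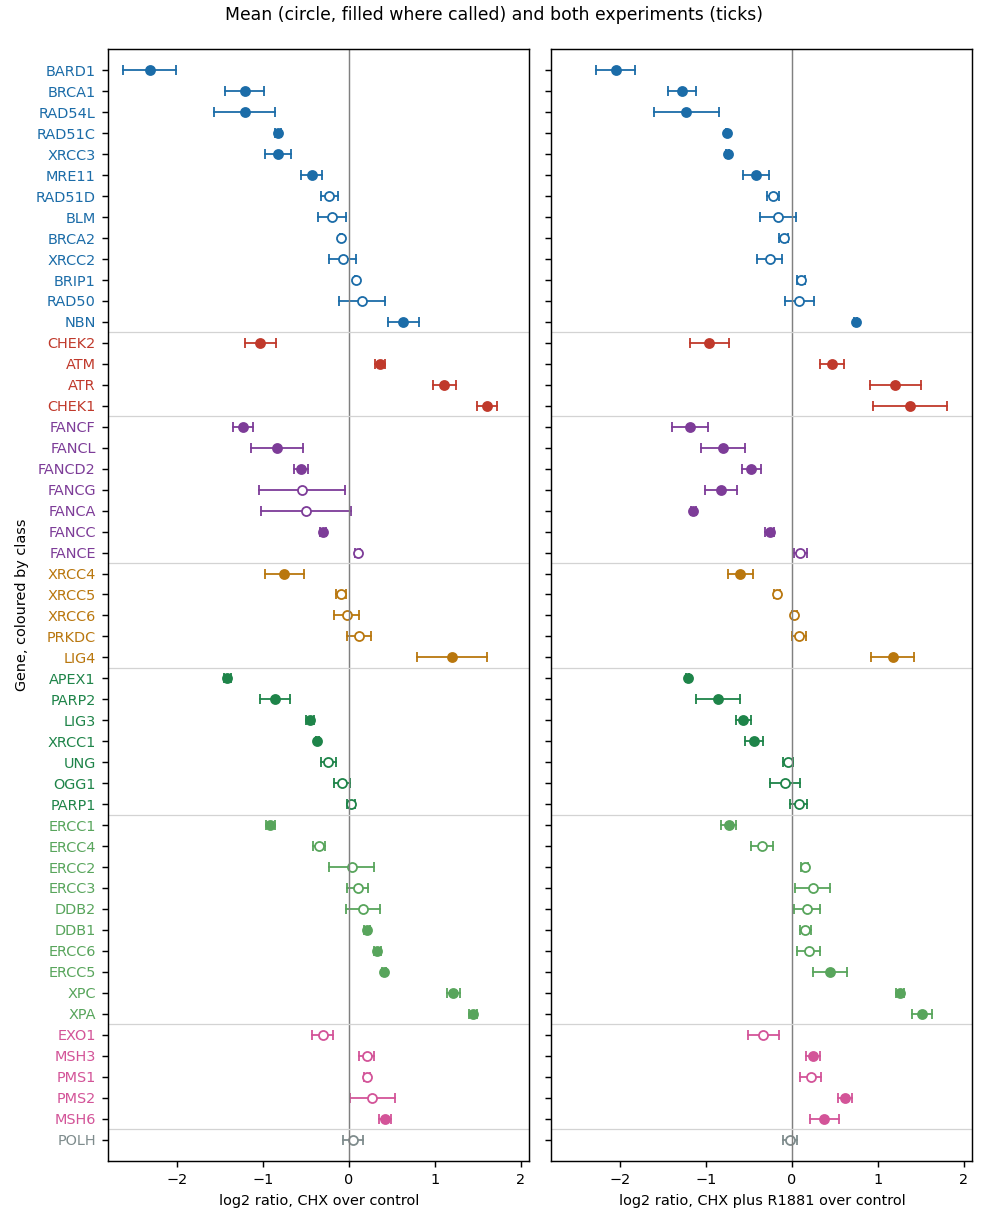
Log2 ratio (horizontal axis) of each repair gene (vertical axis, coloured by class) for CHX over control on the left and CHX plus R1881 over control on the right; circles are means of 2 experiments, filled where limma called the gene, and ticks are the experiments. BARD1 lies lowest on both sides at −2.32 and −2.05, CHEK1 highest on the left at 1.61 and XPA highest on the right at 1.51.

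Among the 87 other repair genes, 23 rose and 26 fell with CHX, where 20.5% of all genes rose and 17.4% fell. UBE2T, the conjugating enzyme of the Fanconi anaemia pathway, fell by 2.14 ± 0.15, FEN1, the flap nuclease, by 1.76 ± 0.96 and NEIL2, a glycosylase, by 1.62 ± 0.39. MNAT1, a subunit of the kinase module of TFIIH, rose by 1.28 ± 0.31, REV3L, the catalytic subunit of the translesion polymerase zeta, by 1.2 ± 0.80 and UBE2A, a conjugating enzyme of the translesion pathway, by 1.15 ± 0.23. Of 10 further translesion genes 7 rose and 1 fell, of 13 further nucleotide excision genes 6 rose and 3 fell, and of 15 further base excision genes 2 rose and 8 fell. Of 20 further recombination genes 4 rose and 5 fell, and of 6 further Fanconi anaemia genes 1 rose and 1 fell, where 0 and 4 of the 7 members did. Of 11 further damage signalling genes 2 rose and 3 fell, and of 5 further end joining genes 0 rose and 1 fell. The further mismatch repair, Fanconi anaemia, recombination and damage signalling genes thus did not follow the counts of the members. Those were 1 rise and 6 falls of 13 in recombination, and 3 rises and 1 fall of 4 in damage signalling. Proliferation markers fell in 15 of 29 cases and rose in 1 (median −0.38), and p53 targets outside repair rose in 8 of 18 and fell in 2 (median 0.35). The part of either in the repair values was not tested.

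Leaving out experiment 1 of CHX, limma called 15 of the 28 changed repair genes, all in the same direction, while the share of all genes called went from 38.0% to 25.4%. The lost ones were ATM, DDB1, ERCC5, ERCC6, FANCC, FANCL, LIG3, MRE11, MSH6, PARP2, RAD54L, XRCC1 and XRCC4. Without experiment 2 of CHX, 22 were called (32.1% of all genes), and ATM, DDB1, ERCC5, ERCC6, FANCC and MSH6 were lost. Of the 28, 13 were called under each of 10 alternatives. Of these, ATR, CHEK1, LIG4, XPA and XPC rose, and APEX1, BARD1, BRCA1, CHEK2, ERCC1, FANCF, RAD51C and XRCC3 fell. The share of all genes that kept a CHX call under these 10 is not given here, so the 13 have no baseline.

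CHX plus R1881 versus control, which may share control cultures with the comparison above (the labels do not say), gave 11 rises and 19 falls among the 52, where 37.4% of all genes were called, 20.8% as risen and 16.6% as fallen. XPA had 1.44 and 1.34, then 1.66 and 1.60, and rose by 1.51 ± 0.17 (adjusted p = 0.000172). XPC, with 1.26 and 1.34, then 1.04 and 1.37, rose by 1.25 ± 0.07. CHEK1, with 1.16 and 0.74 in experiment 1 and 1.88 and 1.74 in experiment 2, rose by 1.38 ± 0.61. ATR, with 0.89 and 0.92, then 1.63 and 1.36, rose by 1.2 ± 0.42. Experiment 2 was the higher one for XPA, CHEK1 and ATR, without overlap, whereas the experiments overlapped for XPC.

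BARD1 had −1.84 and −1.80 in experiment 1 and −2.21 and −2.35 in experiment 2, and fell by 2.05 ± 0.32 (4.14-fold lower, adjusted p = 0.000598). BRCA1, with −1.54 and −1.33, then −1.05 and −1.19, fell by 1.28 ± 0.22. RAD54L, with −1.5 and −1.71, then −0.88 and −0.82, fell by 1.23 ± 0.53. The experiments did not overlap in these 3 recombination genes, BARD1 being lower in experiment 2 and the others in experiment 1. APEX1, with −1.49 and −0.97, then −1.30 and −1.09, fell by 1.21 ± 0.02.

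By class, 6 of 7 Fanconi anaemia genes fell, FANCA (by 1.15 ± 0.05) and FANCG (by 0.82 ± 0.27) included, with 0 that rose and a median of −0.80. Recombination again had 1 rise, of NBN by 0.74 ± 0.03, and 6 falls. In mismatch repair 3 of 5 rose, MSH3 by 0.24 ± 0.11, MSH6 by 0.38 ± 0.24 and PMS2 by 0.62 ± 0.11, and 0 fell. In excision repair 3 of 17 rose, XPA, XPC and ERCC5, and 5 fell, the 4 base excision genes APEX1, PARP2, LIG3 and XRCC1 and the nucleotide excision gene ERCC1. Without experiment 1 of this treatment 19 of the 30 calls held and RAD54L lost its call (adjusted p = 0.0779), together with ATM, FANCA, FANCC, FANCG, FANCL, LIG4, MRE11, MSH3, PMS2 and XRCC4, and 23.4% of all genes were called. Without experiment 2, 23 held (29.0% of all genes called), the lost ones being ERCC5, FANCA, FANCD2, FANCG, MSH3, MSH6 and PMS2. Of the 87 other repair genes 20 rose and 25 fell, where 20.8% of all genes rose and 16.6% fell. They were led by REV3L (1.70 ± 0.25) and UBE2T (−2.16 ± 0.00134), and in mismatch repair 1 rose and 5 fell of 7.

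R1881 in the presence of CHX was taken as CHX plus R1881 minus CHX, experiment by experiment; the control cancels only if both were hybridised against the same control culture, which the labels do not say. By limma 0 of 52 repair genes were called, 0 had an unadjusted p under 0.05, and 0% of all genes were called (1.28% at the unadjusted limit). The androgen-induced genes TMPRSS2, KLK3 and FKBP5 were not called either, with means of 0.31, 0.29 and 0.26. The median of the 52 repair genes was 0.02. The highest means were those of PMS2, with 0.53 in experiment 1 and 0.17 in experiment 2 (mean 0.35), of BARD1, with 0.19 and 0.35 (0.27), of APEX1, with 0.14 and 0.26 (0.20), and of UNG, with 0.05 and 0.34 (0.19). These 4 were above 0 in both experiments. The lowest were FANCA, with −0.09 and −1.2 (−0.65), FANCG, with 0.04 and −0.59 (−0.28), CHEK1, with −0.54 and 0.09 (−0.23), and XRCC2, a recombinase paralog, with −0.18 and −0.20 (−0.19). In FANCA, FANCG and CHEK1 1 experiment carried the value, so only XRCC2 had like values in both.

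A direct hybridisation of CHX plus R1881 against CHX was made in 1 experiment and allows no test. BARD1 was highest there, with 0.30 when its treated RNA was in Cy3 and 0.24 in Cy5. Next came ERCC2, a helicase of TFIIH, with 0.02 and 0.31, and CHEK1 with 0.21 and 0.03. The lowest was PMS1, a mismatch repair protein, with −0.06 and −0.32. In 31 of 52 repair genes both arrays had the same sign, as in 7527 of 14547 genes, and the median of the 52 was −0.03. FANCA had 0.07 and −0.14 and FANCG 0.09 and −0.06, near 0 like their differences in experiment 1 above. For CHEK1 and PMS2 the direct values were unlike the differences of experiment 1 and nearer to those of experiment 2. CHEK1 had −0.54 as a difference in experiment 1 but 0.21 and 0.03 directly. PMS2 had 0.53 as a difference in experiment 1 but 0.14 and 0.01 directly.

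The 2 R1881 responses, without and with CHX, were set against each other in the same fit. The difference was called for 0 of 52 repair genes and 0% of all genes, and the smallest adjusted p of a repair gene was 0.9996. At an unadjusted p under 0.05 there were 4 repair genes, beside 2.45% of all genes. BRCA1 had 0.76 without CHX and −0.07 with it, a difference of 0.83 (95% interval 0.27 to 1.38, unadjusted p = 0.0112). PARP1 had 0.50 and 0.06, a difference of 0.44 (0.14 to 0.74), and MSH6 0.42 and −0.04, a difference of 0.46 (0.05 to 0.86). ERCC1 differed the other way, with −0.15 and 0.18 (difference −0.32, interval −0.61 to −0.03). None of these 4 passed the adjusted test, and in each the sign of the difference was the same in both experiments.

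The largest differences without regard to error were those of FANCA (0.99, 95% interval −0.00172 to 1.98), BRCA1, RAD54L (0.65, interval −0.32 to 1.62) and FANCG (0.64), and the lowest were those of PMS2 (−0.50), ERCC1, APEX1 (−0.32) and XRCC6 (−0.16). FANCA had differences of 0.38 in experiment 1 and 1.60 in experiment 2, so its size rested on experiment 2. BARD1 had 0.26 without and 0.27 with CHX, a difference of −0.01 with an interval of −0.75 to 0.74, which leaves room for a sizeable change either way. The fit took the 6 averaged ratios as separate measurements although all were made against control RNA, and the effect on the error was not tested.

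**Figure D4:**
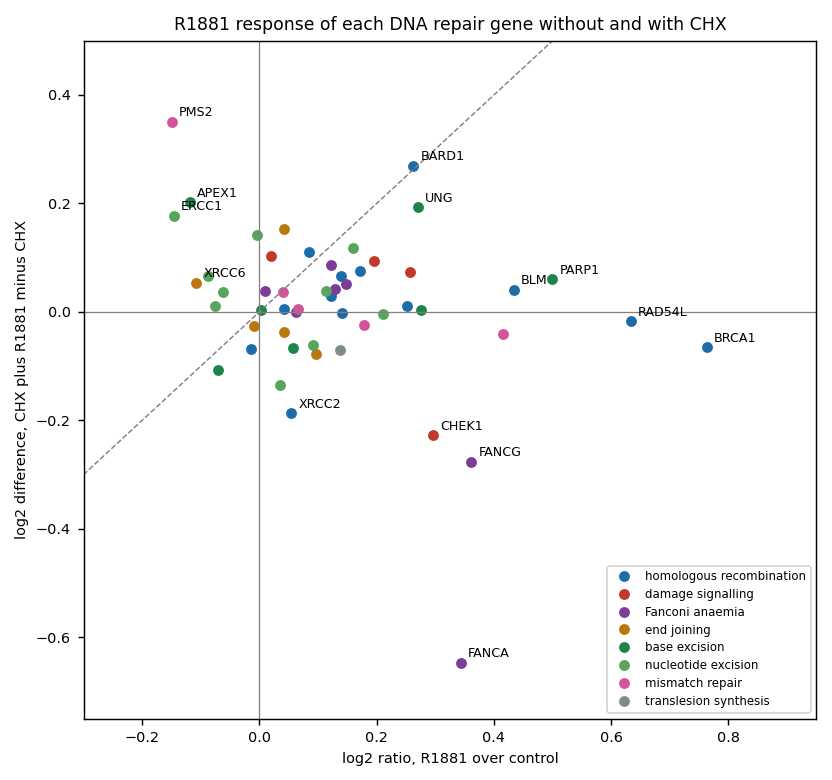
Log2 ratio of R1881 over control (horizontal axis) against the log2 difference of CHX plus R1881 minus CHX (vertical axis) for each of the 52 repair genes, coloured by class and named where the naming rule picked them; the dashed line marks equal responses. BRCA1, RAD54L, PARP1 and BLM lie between 0.43 and 0.76 on the horizontal axis and between −0.07 and 0.06 on the vertical one, and FANCA lies lowest at −0.65.

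The 52 genes were measured by 64 probes, and 41 of them by 1 probe. Of the 11 with more, RAD50, XRCC6 and MSH3 had probes of opposite sign with CHX. The RAD50 probes had −0.30 and 0.60, neither called, and the means of this gene near 0 average the 2. For XRCC6 1 probe fell (−0.48, adjusted p = 0.00395 over all probes) and the other had 0.42 (not called). With R1881, 5 of the 11 genes had probes of opposite sign. XRCC6 was among them, with 0.04 and −0.26, so its low mean with R1881 rests on 1 of 2 probes. For MSH3 1 probe rose (0.54, adjusted p = 0.0104) and the other had −0.13 (not called), so its rise with CHX plus R1881 rests on 1 of 2 probes. ATM, ERCC5 and FANCC, called with CHX as means of their probes, had 1 called probe each (0.38, 0.57 and −0.44). Their other probes had the same sign without a call, at 0.30 and 0.41 for ATM, 0.25 for ERCC5 and −0.16 for FANCC. Probes of CHEK2, LIG3 and RAD51C were each called with the same direction, and no gene had probes called in opposite directions.

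**Figure D5:**
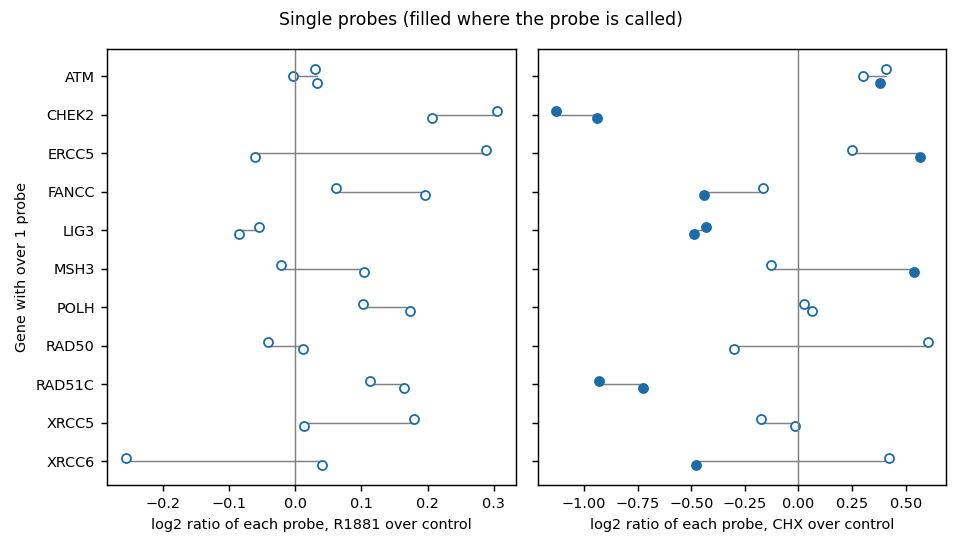
Log2 ratio of each probe (horizontal axis) for the 11 repair genes with over 1 probe (vertical axis), with R1881 over control on the left and CHX over control on the right; points are means of 2 experiments, filled where limma called the probe, set slightly apart in height and joined by a line per gene. With CHX the probes of RAD50, XRCC6 and MSH3 lie on both sides of 0, while those of CHEK2, LIG3 and RAD51C lie together below 0.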

How the data were processed

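RNA was extracted, amplified and coupled to Cy3 or Cy5, per the labels' protocols. The authors deposited 1 log ratio per probe and array (27648 probes, 14 arrays, 0 missing), taken here as log2 values; the base, the image analysis and the normalization are not given in the sources used here. Each value was multiplied by −1. Probes were named by accession through RefSeq (14718), or else by the platform's symbol (1808 current, 1029 older and 156 kept as given), and 9937 had no name. Probes of a gene were averaged, then the arrays of a dye swap.

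The 6 averages per gene entered 1 linear model in limma (version 3.58.1, R version 4.3.3), whose spread was pooled over treatments (3 residual and 2.57 prior degrees of freedom) and Benjamini-Hochberg adjustment over 14547 genes. The fit was tested on simulated data, and no outcome of that test is given here. Members and lists were chosen with earlier results of these data known. Genes given array by array are, per comparison, the called members with the 4 largest rises and 4 largest falls of 1 sign on all arrays, or, with none called, the 4 highest and 4 lowest means. MSH6, ERCC4, UNG, EXO1, FANCA, FANCG and the genes named at an unadjusted p or on the direct arrays were added after their values were seen. Alternatives were the replicate block, a random block, each dye orientation, quantile normalization, scaling, median of probes, platform symbols, a 1.5-fold limit and leaving out each experiment. The fit to R1881 alone was added after the data were seen. The number of arrays limits the precision.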

Additional observations from a re-analysis of the deposited data

How the results depend on the processing

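With R1881, 2 repair genes rose under a random block for the 12 unaveraged arrays against control, and 5 rose with arrays scaled to one spread. With quantile normalization 10 rose and 1 fell, and 0 were called under the other alternatives. With CHX the 11 rises and 17 falls became 5 and 15 with quantile normalization (22.3% of all genes called) and 6 and 16 with scaling (26.7%). With CHX plus R1881 the 11 rises and 19 falls became 6 and 15 (22.7%) and 7 and 17 (27.9%). A 1.5-fold limit left 6 rises with CHX and 7 with CHX plus R1881. In both comparisons it left all falls but those of FANCC, FANCD2, LIG3, MRE11 and XRCC1. The share of all genes at this limit is not given here. Quantile normalization and scaling widen the R1881 ratios and narrow the CHX ratios by construction. Leaving out 1 experiment of the treatment gave 6 to 7 rises and 9 to 18 falls with CHX, with 9 falls without experiment 1 (25.4% of all genes called without experiment 1, 32.1% without experiment 2). It gave 7 rises and 12 to 16 falls with CHX plus R1881, with 12 falls without experiment 1 (23.4% and 29.0% of all genes called), and 0 calls with R1881.

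With the experiment number as a replicate block limma called 13 rises and 19 falls with CHX (44.99% of all genes called), 11 and 21 with CHX plus R1881 (44.2%), and 0 with R1881, and the 28 and 30 calls made without the block were kept. The labels do not say that equal numbers mark a shared culture day. Deviations of experiment 1 from the treatment means correlated across genes at 0.29 (R1881 with CHX), 0.17 (R1881 with CHX plus R1881) and 0.56 (CHX with CHX plus R1881), with 2 pairs each. Where measured, each called repair gene kept its direction under the alternatives run. The median on the direct arrays, −0.03, was 0.01 with the first-named RNA in Cy3 and −0.06 in Cy5. With 2 experiments and no intensities, precision and signal over background cannot be judged per gene.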
